A study of Homo sapiens with 4 samples.

Results

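FLRT proteins, the latrophilins and the UNC5 receptors form a set of cell surface adhesion and guidance genes, and 10 of the 58735 genes in each deposited table belong to it. They are FLRT1, FLRT2 and FLRT3, the latrophilin genes ADGRL1, ADGRL2 and ADGRL3, and the netrin receptor genes UNC5A, UNC5B, UNC5C and UNC5D. They were taken by gene name from GENCODE release 29, and the set was chosen by the lower FPKM of FLRT3 in the shNME7 libraries. Transcripts were measured by RNA-seq in 2 libraries whose cells carried a short hairpin RNA targeting NME7 (shNME7) and in 2 whose cells carried a control hairpin (shCtrl). All 4 libraries are labelled Huh7, an established hepatocellular carcinoma line. The sources used here do not state the hairpin sequences, their delivery or whether the replicates came from separate cultures or clones. The p-values therefore reflect only how much these libraries vary, and that variation may be technical.

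FLRT proteins are single-pass membrane proteins whose extracellular leucine-rich repeats bind other FLRT molecules, latrophilins and UNC5 receptors. Latrophilins are adhesion G protein-coupled receptors that also bind teneurins, and UNC5 receptors bind netrins and carry an intracellular death domain. These contacts are best known from axon guidance, cortical cell migration and synapse formation, and UNC5B also from blood vessels.

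Each library held between 14877906 and 16991397 fragments, and 12854 to 13081 genes reached 1 FPKM (fragments scaled to exon length and library size). NME7, the target of the hairpin, stood at 0.835 and 0.626 FPKM in shNME7 1 and 2, against 3.64 and 3.93 FPKM in shCtrl 1 and 2. The 8 hepatocyte markers examined (ALB, APOA1, APOB, AFP, TF, TTR, SERPINA1 and FGB) summed to 1 to 2 fragments per library, and APOA1, APOB and FGB had 0 fragments in all 4. These data thus go against the labelled cell type, and the samples are called here by their hairpin. Among markers of other cell types, the 6 fibroblast markers summed to 98.7 and 97.3 FPKM in shNME7, against 102.7 and 92.1 FPKM in shCtrl. Most of that sum came from the collagen gene COL3A1, at 75.1 and 76.6 FPKM in shNME7, against 75.8 and 66.9 FPKM in shCtrl. COL1A1 stood at 8.44 and 9.05 FPKM in shNME7, against 10.8 and 9.21 FPKM in shCtrl. LUM stood at 13.9 and 9.88 FPKM in shNME7, against 14.1 and 14.5 FPKM in shCtrl. PDGFRB stood at 1.24 and 1.67 FPKM in shNME7, against 1.77 and 1.46 FPKM in shCtrl. The remaining markers of the list, COL1A2 and DCN, were near 0. COL1A2 had 0 fragments in both shNME7 libraries, against 2 and 0 in shCtrl. DCN stood at 0.0311 and 0.0733 FPKM in shNME7, against 0.0734 and 0.0724 FPKM in shCtrl. Of the 5 fibroblast markers in limma-voom (a linear model of fragment counts) 1 had a higher and 4 a lower estimate, none passed, and the shNME7 values of COL1A1 and LUM were each below the lower shCtrl value. The endothelial cadherin gene CDH5 stood at 1.88 and 2.67 FPKM in shNME7, against 1.70 and 1.31 FPKM in shCtrl. Of the 5 endothelial markers KDR had 0 fragments in all libraries, and the summed level was 2.87 and 3.54 FPKM in shNME7, against 2.37 and 2.03 FPKM in shCtrl. CDH5 and PECAM1, the 2 in limma-voom, had higher estimates and did not pass (limma-voom adjusted p 0.586 and 0.666). TEK went the other way, with 4 and 5 fragments in shNME7, against 6 and 7 in shCtrl. VWF had 3 and 1 fragments in shNME7, against 4 and 2 in shCtrl. The 4 leukocyte markers given here summed to 0.0353 and 0.277 FPKM in shNME7, against 0.0666 and 0.226 FPKM in shCtrl, with PTPRC and CD3E at 0. The part of these marker levels in the results below was not tested.

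FLRT3 is encoded on the minus strand of chromosome 20 (14322988 to 14337616, GRCh38), inside the much longer gene MACROD2, which is transcribed from the opposite strand and encodes a protein that removes ADP-ribose. The 300-base windows around both start sites (250 bases before and 50 after, from RefSeq, build GRCh38.p14) are shown because the levels of both genes are compared below. They are written 5′ to 3′ on the strand of each gene, the FLRT3 window lying at chr20:14337563-14337862 on the minus strand and the MACROD2 window at chr20:13995266-13995565 on the plus strand. Capitals mark CpG dinucleotides.
FLRT3: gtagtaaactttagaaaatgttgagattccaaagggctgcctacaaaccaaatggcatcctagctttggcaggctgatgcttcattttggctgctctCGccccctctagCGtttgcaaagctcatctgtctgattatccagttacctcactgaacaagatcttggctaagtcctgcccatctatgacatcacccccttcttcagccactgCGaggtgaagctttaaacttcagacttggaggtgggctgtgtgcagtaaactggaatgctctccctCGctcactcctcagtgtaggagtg
MACROD2: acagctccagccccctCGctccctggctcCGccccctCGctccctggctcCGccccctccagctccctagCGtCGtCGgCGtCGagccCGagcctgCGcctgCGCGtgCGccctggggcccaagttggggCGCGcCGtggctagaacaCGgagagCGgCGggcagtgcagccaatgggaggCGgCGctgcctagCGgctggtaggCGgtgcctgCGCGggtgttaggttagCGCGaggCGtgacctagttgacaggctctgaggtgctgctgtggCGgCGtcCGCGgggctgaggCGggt

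The FLRT3 window held 4 CpG dinucleotides and 48.7% GC, and the MACROD2 window 34 CpG dinucleotides and 73.3% GC. Over the 35116 windows of this length in the RefSeq table the medians were 14 CpG dinucleotides and 58.7% GC, and 28.7% of the windows had a GC content at or below that of FLRT3. Searched on both strands, the GC box GGGCGG was found 2 times and the CCAAT box once in the MACROD2 window, and neither was found in that of FLRT3. GGGCGG occurs in 44.95% and CCAAT in 34.6% of all windows. The TATA box TATAAA (11.5% of windows), the cyclic AMP response element TGACGTCA (1.85%), the AP-1 site TGANTCA (7.71%), the ATF4 composite core TGATGNAA (3.62%) and the E-box CACGTG (7.26%) were found in neither window. RefSeq windows were available for 7 of the 10 genes, and only that of FLRT3 is shown among them because it is the member whose level chose the set.

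Of the FLRT proteins, FLRT3 had the highest level in both groups and was lower in shNME7. In shNME7 1 and 2 it stood at 1.24 and 1.13 FPKM, from 97 and 100 fragments, against 2.71 and 3.54 FPKM in shCtrl 1 and 2, from 224 and 296 fragments. The shNME7 libraries were both below those of shCtrl, and the distance between the groups exceeded the spread within either. The means were 1.19 ± 0.0772 FPKM in shNME7 and 3.12 ± 0.582 FPKM in shCtrl (SD, n = 2 each), a level 2.63-fold lower in shNME7. Over each group's summed fragments the exact Poisson 95% interval was 170.5 to 227 for the 197 fragments of shNME7 and 476 to 567 for the 520 fragments of shCtrl, which covers counting error only. On the log2(FPKM + 1) scale, which understates changes of low genes, the difference was -0.91 (SE 0.18). On the log2 scale of fragments per library size fitted by limma-voom it was -1.38 (SE 0.25). Since these values chose the set, they are given as a description and with no test. In these bulk libraries, fewer cells of a type and less RNA per cell cannot be told apart.

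FLRT3 transcripts are low in GC (39.2% in the longest transcript), and the libraries differed by GC content. Over the 12857 tested genes with a GC value, the shNME7 minus shCtrl difference had a Spearman rank correlation of 0.41 with GC content, across genes of the same 4 libraries. The 1011 other tested genes within 1 percentage point of the GC content of FLRT3 had a median log2(FPKM + 1) difference of -0.10, against 0.01 for all tested genes and -0.91 for FLRT3. With the trend on GC content and exon length removed from each library, the FLRT3 difference was -0.82 (SE 0.13) on the log2(FPKM + 1) scale and -1.26 (SE 0.16) in limma-voom. The direction and most of the size remained with the trend removed, which is a description, since the lower level of FLRT3 chose the set. The part of GC content in the FLRT3 difference was not tested.

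**Figure D1:**
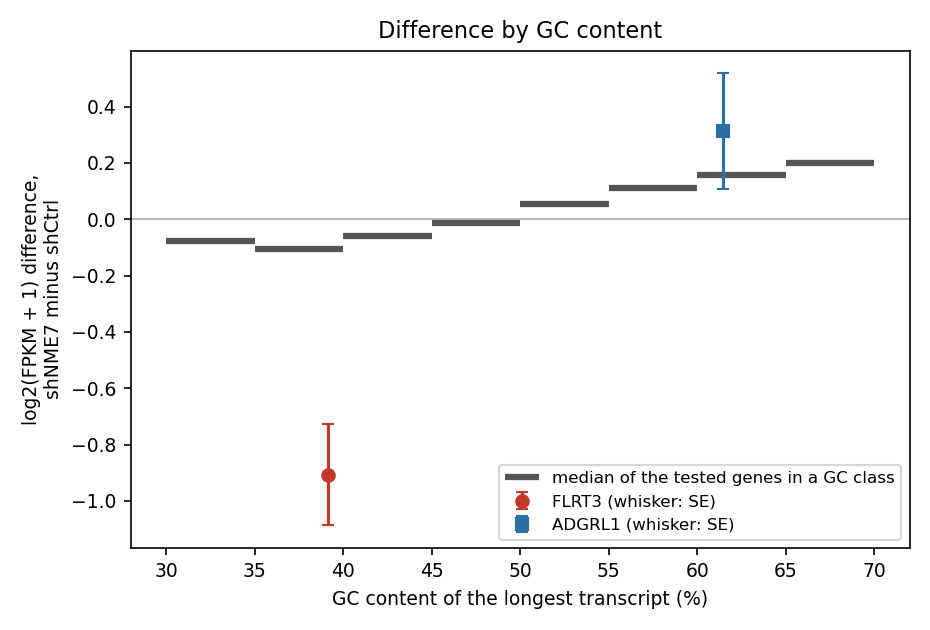
Median shNME7 minus shCtrl difference in log2(FPKM + 1) of the tested genes in classes of GC content (%), with the differences of FLRT3 and ADGRL1 (points, whisker SE). The class medians are negative below 50% GC and positive above it. FLRT3, whose lower level in shNME7 chose the set, lies at -0.91, below the median of its class. The lowest class is drawn from 30% and the highest to 70%.

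The host gene MACROD2 shared 0 exonic bases with FLRT3 in the annotation. It had 22 and 19 fragments in shNME7 (0.128 and 0.0979 FPKM), against 45 and 33 fragments in shCtrl (0.247 and 0.179 FPKM). As for FLRT3, the shNME7 libraries were both below those of shCtrl, but the difference did not pass (limma-voom log2 difference -0.90, SE 0.42, adjusted p 0.630). The sources used here do not state whether the library kit and the counting kept the strand.

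The other FLRT genes were close to the detection limit. FLRT1, whose gene lies inside MACROD1 on chromosome 11, had 5 and 7 fragments in shNME7 (0.0842 and 0.104 FPKM), against 4 and 12 fragments in shCtrl (0.0637 and 0.188 FPKM), and the groups overlapped. AP000721.2, on the same strand, shares 460 exonic bases with FLRT1, or 11.6% of its exon length. It had 0 and 1 fragments in shNME7, against 3 and 1 in shCtrl. AP006333.1, on the opposite strand, shares 538 (13.6%), and had 3 and 0 fragments in shNME7, against 0 and 2 in shCtrl. FLRT2, a guidance cue for UNC5D-bearing neurons in the mouse cortex, had 9 and 11 fragments in shNME7 (0.0172 and 0.0186 FPKM), against 18 and 14 fragments in shCtrl (0.0324 and 0.0249 FPKM). The groups did not overlap for FLRT2, shNME7 being lower, yet the exact Poisson 95% intervals of the group sums overlapped, at 12.2 to 30.9 for 20 fragments in shNME7 and 21.9 to 45.2 for 32 fragments in shCtrl. Its limma-voom log2 difference was -0.64 (SE 0.53, adjusted p 0.790), and -0.38 (SE 0.37, adjusted p 0.675) with the GC and length trend removed. MACROD1, the host of FLRT1, stood at 23.3 and 36.2 FPKM in shNME7, against 24.9 and 19.6 FPKM in shCtrl, with overlapping groups and 0 exonic bases shared with FLRT1. Its transcripts are high in GC (67.3% in the longest transcript). Its limma-voom log2 difference was 0.40 (SE 0.21), and 0.14 (SE 0.12) with the GC and length trend removed. The MACROD1 difference did not pass with all libraries (limma-trend adjusted p 0.808), and passed only without shNME7 1, as given below for FGFR3 and AMIGO2.

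ADGRL1, the latrophilin first found as a receptor of the spider venom component alpha-latrotoxin, had the highest level of all 10 genes in every library. It stood at 6.50 and 8.87 FPKM in shNME7, from 829 and 1279 fragments, against 6.98 and 5.02 FPKM in shCtrl, from 942 and 687 fragments. The groups overlapped, since shCtrl 1 lay above shNME7 1. The means were 7.69 ± 1.68 FPKM in shNME7 and 5.997 ± 1.38 FPKM in shCtrl (SD, n = 2 each), and the difference did not pass, with a limma-trend log2(FPKM + 1) difference of 0.31 (SE 0.21, adjusted p 0.819) and a limma-voom log2 difference of 0.36 (SE 0.20, adjusted p 0.689). With the GC and length trend removed the limma-voom value was 0.22 (SE 0.12, adjusted p 0.451). Leaving out a library moved the limma-voom value between 0.12 without shCtrl 2 and 0.60 without shCtrl 1. The 611 other tested genes within 1 percentage point of its GC content (61.4%) had a median log2(FPKM + 1) difference of 0.15. An antisense gene, AC022098.1, shares 473 exonic bases with ADGRL1, or 5.57% of its exon length, and had 64 and 81 fragments in shNME7, against 65 and 64 in shCtrl.

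The other latrophilins were not detected above the limit. ADGRL2 had 0 fragments in both shNME7 libraries, against 1 and 0 in shCtrl. ADGRL3 had 0 fragments in all 4 libraries, and a count of 0 leaves room for 3 fragments in a library, or 0.0126 to 0.0143 FPKM at its exon length. ADGRL1 was therefore the only latrophilin gene with more than 1 fragment in any library. Per length, the ratio of ADGRL1 to FLRT3 was 5.23 and 7.82 in shNME7 1 and 2, against 2.57 and 1.42 in shCtrl 1 and 2, a ratio whose lower member chose the set.

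UNC5B, a netrin receptor of growing vessels and axons, had the highest level of the UNC5 genes and was below 1 FPKM in each library. It stood at 0.331 and 0.189 FPKM in shNME7, from 34 and 22 fragments, against 0.395 and 0.653 FPKM in shCtrl, from 43 and 72 fragments. The groups did not overlap, shNME7 being lower, with shNME7 1 close to shCtrl 1. The means were 0.260 ± 0.0999 FPKM in shNME7 and 0.524 ± 0.182 FPKM in shCtrl (SD, n = 2 each). The limma-voom log2 difference was -1.03 (SE 0.41) and did not pass (adjusted p 0.575, unadjusted p 0.0257). It was -1.18 with the GC and length trend removed, and ran from -1.41 without shNME7 1 to -0.61 without shNME7 2, so its size depends on single libraries.

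The other UNC5 genes had 0 to 5 fragments per library, and no fold is given. UNC5A had 2 fragments in each shNME7 library and 0 in each shCtrl library. UNC5C had 0 in both shNME7 libraries, against 0 and 2 in shCtrl. UNC5D had 1 and 3 fragments in shNME7, against 5 in each shCtrl library. For UNC5A and UNC5D the groups did not overlap, but the counts lie near the 3 fragments that a count of 0 allows.

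**Figure D2:**
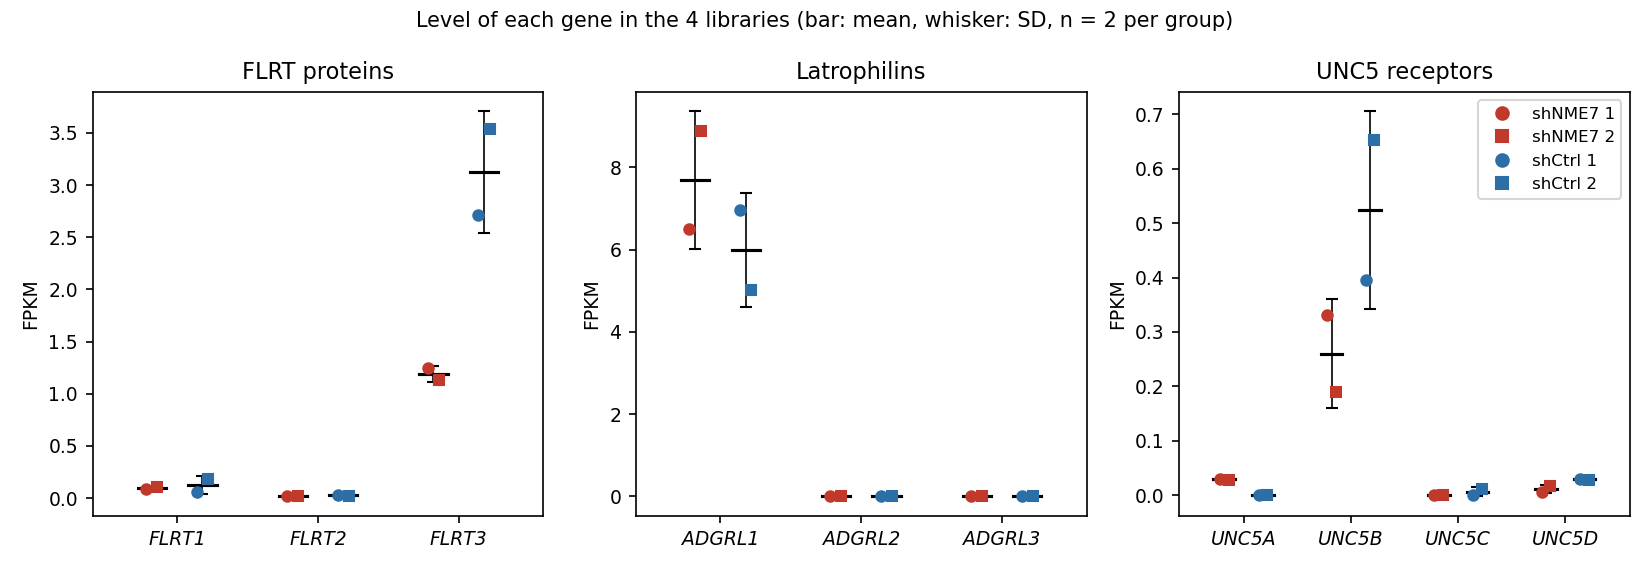
FPKM of the 10 genes in each library (points, shNME7 left of shCtrl), with the mean (bar) and SD (whisker) of 2 libraries per group, on a linear axis of its own in each panel. FLRT3, ADGRL1 and UNC5B carry nearly all of the signal of their families, and FLRT3 and UNC5B have both shNME7 libraries below both shCtrl libraries while ADGRL1 overlaps.

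In both groups the order of mean FPKM began ADGRL1, FLRT3, UNC5B and FLRT1, and within each group the libraries of neighbouring genes in this order did not overlap. Below FLRT1 the order differed between the groups and rested on at most 18 fragments per gene and library, and UNC5D and FLRT2 overlapped in shCtrl. Levels of FLRT2 depend on its long annotated exons, 34899 bases against 5190 for FLRT3.

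Of the 10 genes, 2 had a mean of at least 1 FPKM and so entered limma-trend, and 4 had a mean of at least 10 fragments and so entered limma-voom. The other 6 had too few fragments for either test. Apart from FLRT3, 0 of 1 members were called by limma-trend and 0 of 3 by limma-voom, with 0 and 1 at an unadjusted p under 0.05. Over all genes limma-trend called 0% (0 of 12866, with 859 at an unadjusted p under 0.05). In limma-voom 0.106% were called (16 of 15112, with 1197 at an unadjusted p under 0.05). The share called over all genes was near 0 in either test. Both shNME7 libraries were below both shCtrl libraries for FLRT3, FLRT2 and UNC5B among the 4 genes in limma-voom, where the same holds for 18.8% of the 15112 genes. Nothing is read from that count, since the comparison chose the set.

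**Figure D3:**
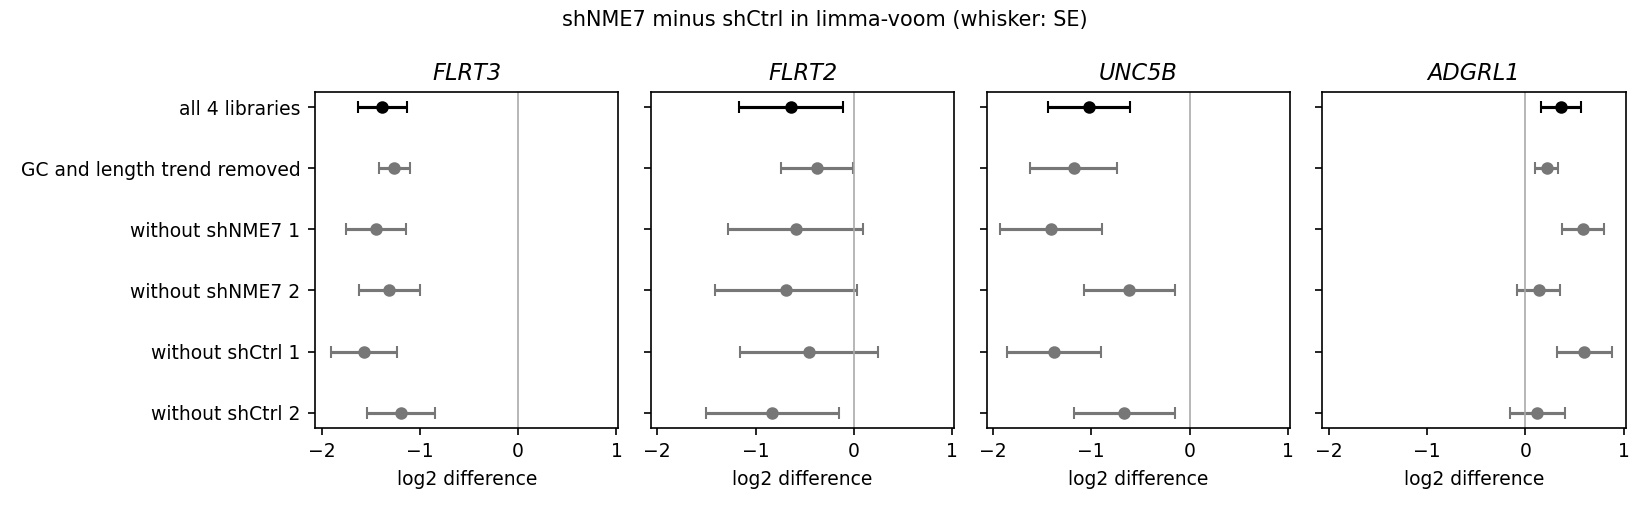
Log2 difference between shNME7 and shCtrl from limma-voom (point, whisker SE) for the 4 genes with enough fragments, with all 4 libraries (black) and under 5 alternatives (grey). The values of FLRT3, which chose the set, lie between -1.57 and -1.19 and those of UNC5B between -1.41 and -0.61. The intervals of 1 SE of FLRT2 and ADGRL1 reach 0 in some alternatives. That of UNC5B comes near 0 without shNME7 2 and without shCtrl 2, and UNC5B did not pass with all 4 libraries.

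The lists of partner and related genes held 61 genes, of which 27 had enough fragments for limma-voom and 23 for limma-trend. Only 32 of the 61 are partners or relatives of the receptors, the rest being 27 other leucine-rich repeat adhesion genes and the 2 host genes. None was called (0 of 23 in limma-trend and 0 of 27 in limma-voom). At an unadjusted p under 0.05 were 1 of the 23 in limma-trend and 4 of the 27 in limma-voom. Over all genes these were 859 of 12866 and 1197 of 15112. Of the 27 in limma-voom, 17 had a lower and 10 a higher estimate in shNME7. That is 63.0% lower against 48.1% of all genes, and the median log2 difference was -0.12 against 0.01 for all genes. Both shNME7 libraries lay below for 9 of the 27 (33.3%, against 18.8% of all genes) and above for 4 (14.8%, against 18.3%). Of the 32 partners and receptor relatives alone, 17 were in limma-voom, 11 with a lower and 6 with a higher estimate and a median of -0.12. Both shNME7 libraries lay below for 5 of these 17 (29.4%) and above for 3 (17.6%).

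Teneurins are also ligands of latrophilins. TENM3 stood at 1.71 and 1.96 FPKM in shNME7, against 1.95 and 2.12 FPKM in shCtrl, with a limma-trend difference of -0.10 (adjusted p 0.902) and overlapping groups. TENM1, named after its values were seen, had 63 and 81 fragments in shNME7 (0.325 and 0.370 FPKM), against 128 and 152 in shCtrl (0.624 and 0.731 FPKM). The groups of TENM1 did not overlap, and its limma-voom log2 difference of -0.95 (SE 0.27) did not pass (adjusted p 0.342). TENM2 and TENM4 had 0 to 7 fragments per library.

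Of the 7 netrin and repulsive guidance molecule genes, 3 had enough fragments. NTN3 stood at 0.704 and 0.889 FPKM in shNME7, against 1.14 and 1.12 FPKM in shCtrl (limma-voom log2 difference -0.50, adjusted p 0.785). RGMB, a ligand of neogenin and a co-receptor of bone morphogenetic proteins, stood at 1.15 and 1.49 FPKM in shNME7, against 1.64 and 1.38 FPKM in shCtrl (limma-trend difference -0.12, adjusted p 0.899). Its limma-voom value of -0.20 ran from -0.39 without shNME7 2 to -0.01 without shNME7 1. NTN4, a netrin of basement membranes and the most abundant of these ligands, was named after its values were seen. It stood at 11.9 and 10.5 FPKM in shNME7, against 11.1 and 10.9 FPKM in shCtrl, with both shCtrl values between those of shNME7 (limma-voom log2 difference 0.03, adjusted p 0.977). NTN1, the classic UNC5 ligand, had 3 and 5 fragments in shNME7, against 3 and 4 in shCtrl. NTN1 is thus near the limit in both groups.

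Of the 5 other netrin receptors and co-receptors, DCC and DSCAM had 0 fragments in all libraries. ADORA2B, an adenosine receptor also reported to bind netrin-1, stood at 4.88 and 4.39 FPKM in shNME7, against 3.72 and 3.65 FPKM in shCtrl. Both shNME7 libraries were above both shCtrl libraries, and the limma-trend difference of 0.26 did not pass (adjusted p 0.795). MCAM, an adhesion molecule of the immunoglobulin family, stood at 32.2 and 42.1 FPKM in shNME7, against 44.2 and 38.9 FPKM in shCtrl. The limma-trend difference of MCAM was -0.16 (adjusted p 0.857) and turned to 0.02 without shNME7 1.

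Among 8 further surface partners, 3 of the 5 tested had a higher and 2 a lower estimate. FGFR3, a fibroblast growth factor receptor, stood at 5.68 and 7.91 FPKM in shNME7, against 5.25 and 3.81 FPKM in shCtrl, a limma-trend difference of 0.49 (SE 0.21, adjusted p 0.747). Its limma-voom log2 difference was 0.59 (SE 0.22), and 0.41 (SE 0.12) with the GC and length trend removed. ROBO1, the Slit receptor to which FLRT3 binds in mouse axons, stood at 15.2 and 17.4 FPKM in shNME7, against 19.3 and 21.4 FPKM in shCtrl, a limma-trend difference of -0.31 (SE 0.14, adjusted p 0.788). Both shNME7 libraries were above both shCtrl libraries for FGFR3 and below for ROBO1. GPC3 and FGFR2 had 0 fragments in all libraries.

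Of 7 intracellular partners, 4 of the 5 tested had a lower estimate. RND3, which encodes a small GTP-binding protein, stood at 9.61 and 7.49 FPKM in shNME7, against 9.08 and 11.4 FPKM in shCtrl (limma-trend difference -0.24, adjusted p 0.836). The groups of RND3 overlapped, and the difference was -0.08 without shNME7 2, -0.09 without shCtrl 2, -0.39 without shCtrl 1 and -0.40 without shNME7 1. DAPK1, a kinase that takes part in UNC5B-linked cell death, stood at 2.06 and 2.73 FPKM in shNME7, against 2.00 and 1.84 FPKM in shCtrl (difference 0.21, adjusted p 0.837). The DAPK1 difference was 0.07 without shNME7 2 and 0.35 without shNME7 1. RND1, the partner of FLRT3 in frog embryos, had 4 to 11 fragments per library and was not tested.

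Of the 27 other leucine-rich repeat adhesion genes, 8 were tested in limma-voom, 3 with a higher and 5 with a lower estimate. AMIGO2, a homophilic adhesion protein, stood at 8.38 and 6.98 FPKM in shNME7, against 13.6 and 13.7 FPKM in shCtrl. The 2 shNME7 values lay well below those of shCtrl. The limma-trend difference of -0.76 (SE 0.14) did not pass (adjusted p 0.505), nor did the limma-voom one of -0.83 (SE 0.18, adjusted p 0.133). With the GC and length trend removed the limma-voom value of AMIGO2 was -0.78 (SE 0.11). LRIG1, a negative regulator of epidermal growth factor receptors, stood at 1.75 and 1.94 FPKM in shNME7, against 2.41 and 2.26 FPKM in shCtrl (difference -0.23, adjusted p 0.830). AMIGO2, FGFR3 and MACROD1 passed in limma-trend without shNME7 1, at adjusted p 0.00161, 0.0212 and 0.0336, and in limma-voom without it at 0.00261, 0.0186 and 0.0352. Over their other alternatives they did not pass, and the highest adjusted p of limma-trend and limma-voom was 0.693 for AMIGO2 and near 1 for FGFR3 and MACROD1. With shNME7 1 left out, shNME7 2 is the only library of its group and is assumed to vary like the shCtrl libraries, and limma-trend then called 632 genes.

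**Figure D4:**
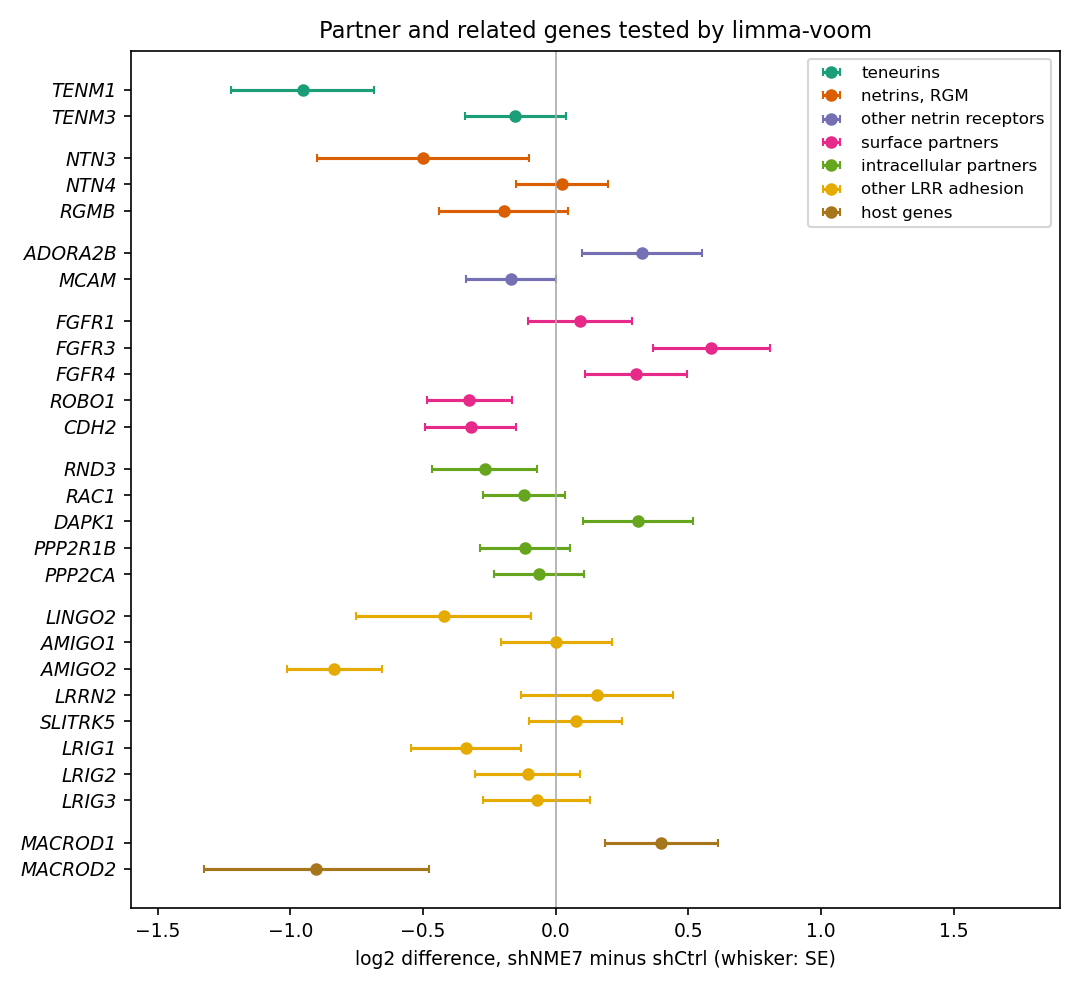
Limma-voom log2 difference between shNME7 and shCtrl (point, whisker SE) for the 27 partner and related genes that averaged at least 10 fragments, coloured by list. TENM1, MACROD2 and AMIGO2 have the most negative values and FGFR3 the most positive, and 0 of the 27 passed.

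The genes whose pattern over the 4 libraries was closest to that of FLRT3 were found among 12865 tested genes by the root mean square distance between log2(FPKM + 1) values, each centred on its own mean. The 5 closest were RNU4-23P, PLAG1, IGLV5-52, CLDN1 and TRIM2, at distances of 0.0487 to 0.0957, against a median of 0.490. PLAG1, a zinc finger transcription factor gene, stood at 0.671 and 0.594 FPKM in shNME7, against 2.05 and 2.54 FPKM in shCtrl. CLDN1, a tight junction gene, stood at 3.61 and 2.97 FPKM in shNME7, against 7.00 and 7.51 FPKM in shCtrl. TRIM2, a ubiquitin ligase gene, stood at 3.69 and 3.92 FPKM in shNME7, against 8.03 and 8.44 FPKM in shCtrl. All 3 have both shNME7 libraries below both shCtrl libraries, as the choice by likeness to FLRT3 requires. RNU4-23P is a short RNA gene with 1 fragment in each shNME7 library, against 3 and 4 in shCtrl, and IGLV5-52, an immunoglobulin segment, had 19 and 18 fragments in shNME7, against 33 and 39 in shCtrl.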

How the data were processed

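Per the file headers, the authors deposited FPKM values, 58735 genes per library. The submitters' processing notes name HISAT2 2.0.5 and the build hg18, and the sources used here do not state the counter, annotation or filters. All 58735 IDs occur in GENCODE release 29 on GRCh38, which gave names, coordinates and exon lengths. FPKM times exon length gave whole multiples of a step (100% of values within 0.01), so fragments were recovered.

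The main test was limma-trend (limma 3.58.1, R 4.3.3) on log2(FPKM + 1), for genes with a mean of at least 1 FPKM, with a group term only. limma-voom used recovered fragments, for genes with a mean of at least 10. P-values are two-sided, Benjamini-Hochberg adjusted over all genes tested, with a threshold of 0.05. The trend on GC content and exon length was a loess fit (span 0.3). Both tests were also run on simulated counts. These held no trend on GC content, so that run does not cover the trend seen in these libraries.

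The members, lists and tests were chosen with earlier results of these data known. Partner genes named are up to 2 per list with the largest change and at least 1 FPKM in the higher group. TENM1, NTN4, FGFR2, GPC3, NTN1 and other genes near 0 were named after their values were seen. Marker lists of hepatocytes, neurons, endothelium, fibroblasts and leukocytes served as checks, and some list members are not reported here. The 6 neuron markers, with STMN2 and NEFL at 0, summed to 2.90 and 2.89 FPKM in shNME7, against 2.33 and 3.06 in shCtrl. In limma-voom SNAP25 was at 0.17 and SYT1, from 22 and 11 fragments in shNME7 against 21 in each shCtrl library, at -0.44, and neither passed. The limit for a count of 0 was set at 3 fragments a library. This limit and the 95% intervals cover counting error alone and leave out variation between libraries. The sources used here do not state whether PCR copies were removed, and copies left in would add variation that neither covers.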

Additional observations from a re-analysis of the deposited data

How the results depend on the processing

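The FLRT3 difference stayed negative in each of 16 alternatives. With a library left out, no filter or a replicate block its sign was fixed in advance, since both shNME7 values lie below both shCtrl values. The FLRT3 difference also chose the set, so nothing is read from that count. On the log2(FPKM + 1) scale it was -0.91, and it was -1.31 with a pseudocount of 0.1, -1.38 in limma-voom and -1.26 in limma-voom after GC and length correction, scales that by construction understate a low gene less. With a library left out it ran from -1.57 to -1.19 in limma-voom, the value being -1.45 without shNME7 1, and reached -0.76 in limma-trend. ADGRL1 stayed positive and UNC5B and FLRT2 negative in every alternative that tested them, and 0 members other than FLRT3 were called in any. The groups of UNC5B and FLRT2 do not overlap, so leaving out a library could not change their sign either.

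Of all genes limma-trend called 0, against 1 after GC and length correction, 16 in limma-voom and 12 in limma-voom after correction. With a library left out limma-trend called 112 to 632 and limma-voom 430 and 41 without shNME7 1 and 2 and 39 and 28 without shCtrl 1 and 2, where the lone library is assumed to vary like the other group. The MCAM difference ran from -0.36 to 0.02 with a library left out, the positive values (0.0228 in limma-trend and 0.0234 in limma-voom) being those without shNME7 1. The NTN4 difference, 0.02 with all libraries, turned to -0.0583 (limma-trend) and -0.0637 (limma-voom) without shNME7 1, was 0.107 and 0.117 without shNME7 2, and stayed between these with a shCtrl library left out. The replicate block gave 122 calls, and 0 with the trend removed. The labels do not say that the numbers pair the libraries, and same-numbered deviations had a correlation of -0.35 across genes. The crossed replicate block, chosen after seeing the data, gave 0 calls. The replicate block changed no call of a member. Differences of the 6 members with a mean under 10 fragments were not tested. The cause of these changes was not tested.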
